A study of Mus musculus with 8 samples.

Results

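Lymphoid B is 1 of 20 classes to which the authors assigned bone marrow cells from RNA alone, and its members were taken here as the cells with that class name in the deposited cell table. There were 467 such cells among 22602 annotated cells (2.07%). The class name was given without the antibody data, so the scores of the 35 surface proteins described below did not set it, although the cells on offer had been sorted and filtered on some of these proteins, as given in the next paragraph. The meaning of the letter B is not given in the sources used here. Lymphoid progenitors arise from multipotent progenitors (MPPs), which lose self-renewal, gain the cytokine receptor Flk2 (CD135) and, on the lymphoid path, raise CD27 before the receptor for interleukin 7 (CD127) and the B cell protein B220 appear. Granulocyte-monocyte progenitors (GMPs) instead raise the Fc receptors CD16/32, and CD11c and MHC class II are proteins of the dendritic cell (DC) lineage.

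The cells came from FlkSwitch mice, in which a Cre driven by Flk2 switches a reporter from tdTomato (Tom), carried by hematopoietic stem cells (HSCs), to GFP in all descendants of cells that expressed Flk2. Male mice on the C57Bl/6 background were young (2 to 3 months) or old (20 to 24 months), and both ages carried the same alleles. Hind limb marrow was enriched for c-Kit, cleared by sorting of cells that carried antigens of mature T cells (CD3, CD4, CD5 or CD8), B cells (B220), myeloid cells (CD11b or Gr-1) or erythroid cells (Ter119), and sorted as CD150- and CD150+ fractions, which were run as 8 libraries. The authors then removed cells negative for both CD117 tags and Kit RNA, so CD117, CD150 and the antigens of the sort helped to decide which cells are present. Surface proteins were read as antibody-derived tag (ADT) counts, the number of DNA barcodes of each antibody found with a cell. Each cell has a group name made of a letter (A to D) and a number (1 to 4), where numbers 1 and 2 are young and 3 and 4 are old. These names match no library title, and no source used here ties them to animals, so the cells form 1 sample, no test was run and no p is given. Values are means over the cells of a letter and age, and an SD is the spread over such groups. Lymphoid B held 36, 44, 48 and 60 young cells and 61, 72, 71 and 75 old cells in letters A, B, C and D. Of its cells, 451 were in groups of numbers 1 and 3 and 16 in those of numbers 2 and 4, where CD150 was higher over all cells (mean score 0.745 and 0.785, against 0.163 and 0.137).

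A Lymphoid B cell had a median of 2872 ADT counts (505 to 7170), and the medians of the 8 letter and age groups ran from 2378 to 3893. The median was 3051 in Lymphoid A, 2658 in GMP/Neut progenitor A and 2513 in MPP D. How doublets were treated is not given in the sources used here, and 11 Lymphoid B cells exceeded 2 times the class median. Of the annotated cells, 104 had a barcode found in more than 1 cell group, and 3 of these were Lymphoid B cells. In old cells the letters fell into pairs. Over the 35 mean scores of old Lymphoid B cells, the Euclidean distance was 0.214 between A and B and 0.149 between C and D, but 0.540 to 0.574 across these pairs. In young cells C and D were 0.206 apart and the other pairs 0.326 to 0.417, with A and B at 0.375. The 4 letters are therefore not 4 equally separate repeats.

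Most ADT counts of Lymphoid B cells came from a few antibodies. CD44, the hyaluronan receptor, took 32.5% of all ADT counts, CD48 22.3%, CD27 9.61% and the stem cell factor receptor CD117 9.15%. These shares depend on how strongly each antibody stains, so they do not rank the amounts of different proteins. The remaining values are normalized scores, in which the count of a protein is divided by the geometric mean of the cell and passed through 2 logarithms, so groups are compared as differences and not as folds. The markers CD54, CD27 and CD135 ranked between 3 and 5 among the 20 classes. CD54, the adhesion molecule ICAM-1, had 0.977 and ranked 3, below DC progenitors (1.18) and HSCs (1.05). CD27, a receptor of the TNF family, had 1.43 and ranked 4, with the highest class, MPP B, at 1.44. CD135, the receptor encoded by Flt3 whose promoter drives the Cre in these mice, had 0.207 and ranked 5. The high ranks were thus shared with neighbouring progenitor classes. The genes are Icam1 (chr9:21015985-21028817, plus strand) for CD54, Cd27 (chr6:125232622-125237010, minus strand) and Flt3 (chr5:147330741-147400489, minus strand) for CD135, all in GRCm38/mm10.

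**Figure D1:**
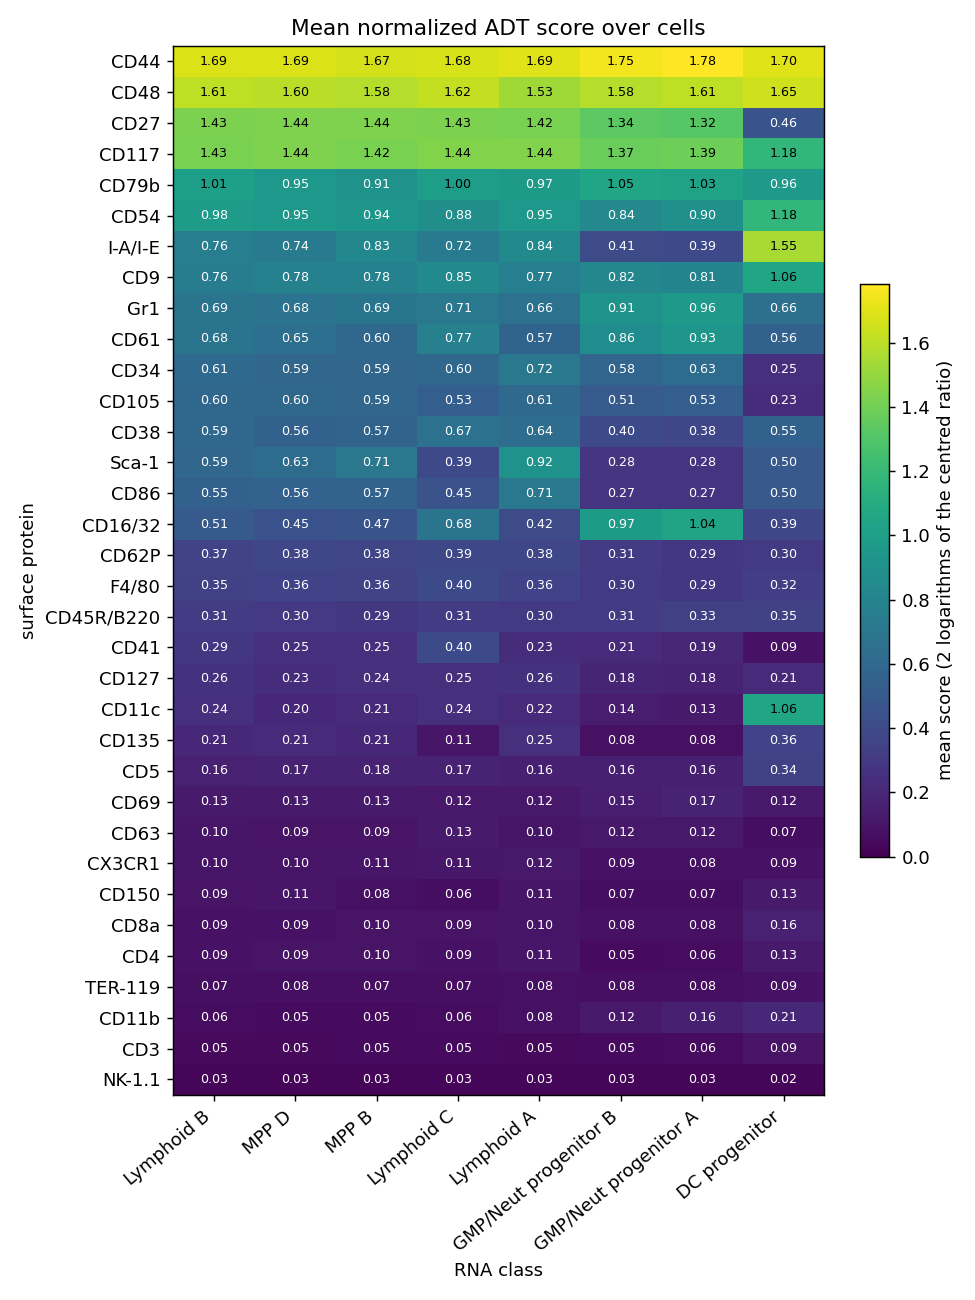
Mean normalized ADT score (colour and printed value, a score with 2 logarithms) of 34 surface proteins (vertical axis) over all cells of Lymphoid B and 7 other RNA classes (horizontal axis), with proteins in order of their Lymphoid B mean. MPP D and MPP B resemble Lymphoid B most closely, GMP/Neut progenitors stand out by CD16/32 (1.04 in progenitor A against 0.507) and DC progenitors by CD11c (1.06 against 0.238).

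The lymphoid proteins CD127 and B220 ranked 10 and 9 among the 20 classes. CD127, encoded by Il7r (chr15:9505788-9530176, minus strand), had a mean score of 0.258, which lay below the erythroid class Ery B (0.321). With every cell thinned to 300 ADT counts, CD127 was found in 36.6% (32.2% to 41.2%) of Lymphoid B cells (share with its exact 95% interval), in 32.1% (29.7% to 34.6%) of Ery B cells and in 22.3% (21.0% to 23.8%) of Ery C cells, so its share lay above Ery C and overlapped Ery B within counting error. B220, an isoform of CD45 on B-lineage cells, was found in 39.8% (35.4% to 44.4%) of Lymphoid B, 48.5% (45.9% to 51.1%) of Ery B and 44.7% (43.1% to 46.4%) of Ery C cells after thinning. The thinned B220 share thus lay below Ery B and overlapped Ery C within counting error, so it did not set Lymphoid B above these erythroid classes. The source of the B220 signal was not tested. CD79b, a chain of the B cell receptor complex, likewise had 1.01, below Ery B at 1.49. CD135 was found in 25.5% (21.6% to 29.7%) of thinned Lymphoid B cells, 8.69% (7.30% to 10.3%) of Ery B and 9.45% (8.49% to 10.5%) of Ery C cells, above both. In neighbouring classes its thinned share was 31.1% in Lymphoid A, 29.4% in MPP D, 27.0% in MPP B and 12.2% in Lymphoid C. For CD127 these shares were 40.5%, 32.8%, 34.1% and 31.9%, and 51.9% in HSCs. Without thinning, CD135 was found in 75.8%, 39.5% and 40.9% of Lymphoid B, Ery B and Ery C cells, at median depths of 2872, 1858 and 1731 ADT counts. The intervals cover counting error only, and the deposited shares before thinning for CD127 were 92.5%, 84.4% and 71.6%, and for B220 97.4%, 96.3% and 94.2%. The T and NK cell antibodies were low, with mean scores of 0.0276 for NK-1.1, 0.0466 for CD3, 0.0887 for CD4, 0.0893 for CD8a and 0.164 for CD5, and together they took 0.151% to 0.229% of the counts in young and 0.190% to 0.273% in old letter groups. TER-119, the erythroid antibody, had 0.0705 and ranked 18. CD150, which marks HSCs and megakaryocyte progenitors, had 0.0908. Apart from NK-1.1, these antigens, and B220, were used to sort the cells, and the part of the sort in their levels was not tested.

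The markers held across letters to different degrees. CD27 had mean scores of 1.39, 1.46, 1.47 and 1.46 in young cells and 1.43, 1.46, 1.38 and 1.38 in old cells of letters A, B, C and D, so the ages overlapped. CD54 was nearly level, at 0.996, 1.00, 0.996 and 1.01 in young and 0.943, 0.952, 0.967 and 0.978 in old cells, and each old value lay under all young values. CD135 ranged more widely, at 0.156, 0.215, 0.323 and 0.268 in young and 0.177, 0.167, 0.175 and 0.196 in old cells, and was highest in young cells of letter C, the group with the most ADT counts per cell (median 3893). Its rank correlation with ADT counts over cells was 0.309, and the part of depth in that value was not tested. Cells within the class also differed. Over all 467 cells, the middle 80% of the scores ran from 0.226 to 1.13 for Sca-1, from 0.111 to 0.853 for CD16/32 and from 1.49 to 1.71 for CD48. The SD of Sca-1 over cells was 0.342, close to Lymphoid A (0.335) and above Lymphoid C (0.208).

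The first comparison set Lymphoid B against Lymphoid A, to see which surface proteins part these lymphoid classes. Lymphoid B carried less Sca-1, less CD86 and less MHC class II, and more CD61. A protein was counted as different where the sign was the same in all 8 letter and age groups and the mean difference reached 0.1 score units, and 5 of 35 proteins met this (14.3%), 2 higher (5.71%) and 3 lower (8.57%). Sca-1, a surface protein of stem cells and early progenitors encoded by Ly6a (chr15:74994877-74998031, minus strand), had mean scores of 0.593 against 0.914, a difference of -0.320 ± 0.0385 (mean and SD over 8 groups). In Lymphoid B it was 0.615, 0.546, 0.646 and 0.575 in young and 0.723, 0.612, 0.514 and 0.517 in old cells of letters A to D. The lowest Lymphoid A group was at 0.770, so the groups of the 2 classes did not overlap. Sca-1 took 1.03% against 2.60% of the ADT counts. CD86, a costimulatory ligand for T cells, differed by -0.138 ± 0.0242 (-0.183 to -0.104). Its old groups were lower in both classes, so that Lymphoid B ran from 0.459 to 0.711 and Lymphoid A from 0.605 to 0.822, and the classes parted within an age. MHC class II (I-A/I-E) differed by -0.120 ± 0.0423, with levels of 0.734 against 0.854 and a range of -0.174 to -0.0636.

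CD61, the integrin chain beta 3 of platelets and progenitors, was higher in Lymphoid B by 0.104 ± 0.0506, at the edge of the size rule, and fell under it without letter B or without letter C (lowest 0.0956). CD48, a ligand of CD244 that is absent from most HSCs, was higher in all 8 groups by 0.0828 ± 0.0249, under the size of 0.1, and so was CD16/32 by 0.0772 ± 0.0545. The markers CD27, CD135 and CD54 were not counted. CD27 differed by 0.0102 ± 0.0300, CD135 by -0.0208 ± 0.0270 and CD54 by 0.0300 ± 0.0208. CD127 differed by -0.00545 ± 0.0394, with 4 groups in each direction. Of the 5 lymphoid progenitor proteins 1 was higher and 1 lower (Sca-1), with a median difference of -0.00545 beside -0.00129 over all 35. Of the 3 dendritic and antigen presenting proteins 2 were lower (median -0.120), of the 5 stem and early progenitor proteins 1 was lower (-0.0328), of the 5 megakaryocyte and platelet proteins 1 was higher (-0.0125) and of the 6 adhesion and activation proteins 1 was higher (0.0204). None of the B cell, T and NK cell, granulocyte and monocyte, erythroid or sort lineage proteins was counted, with medians of 0.0353, -0.000108, -0.00129, -0.00484 and -0.00397. After thinning cells to 300 ADT counts, Sca-1 and CD86 were still counted, while MHC class II and CD61 fell under the size (-0.0953 and 0.0714).

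**Figure D2:**
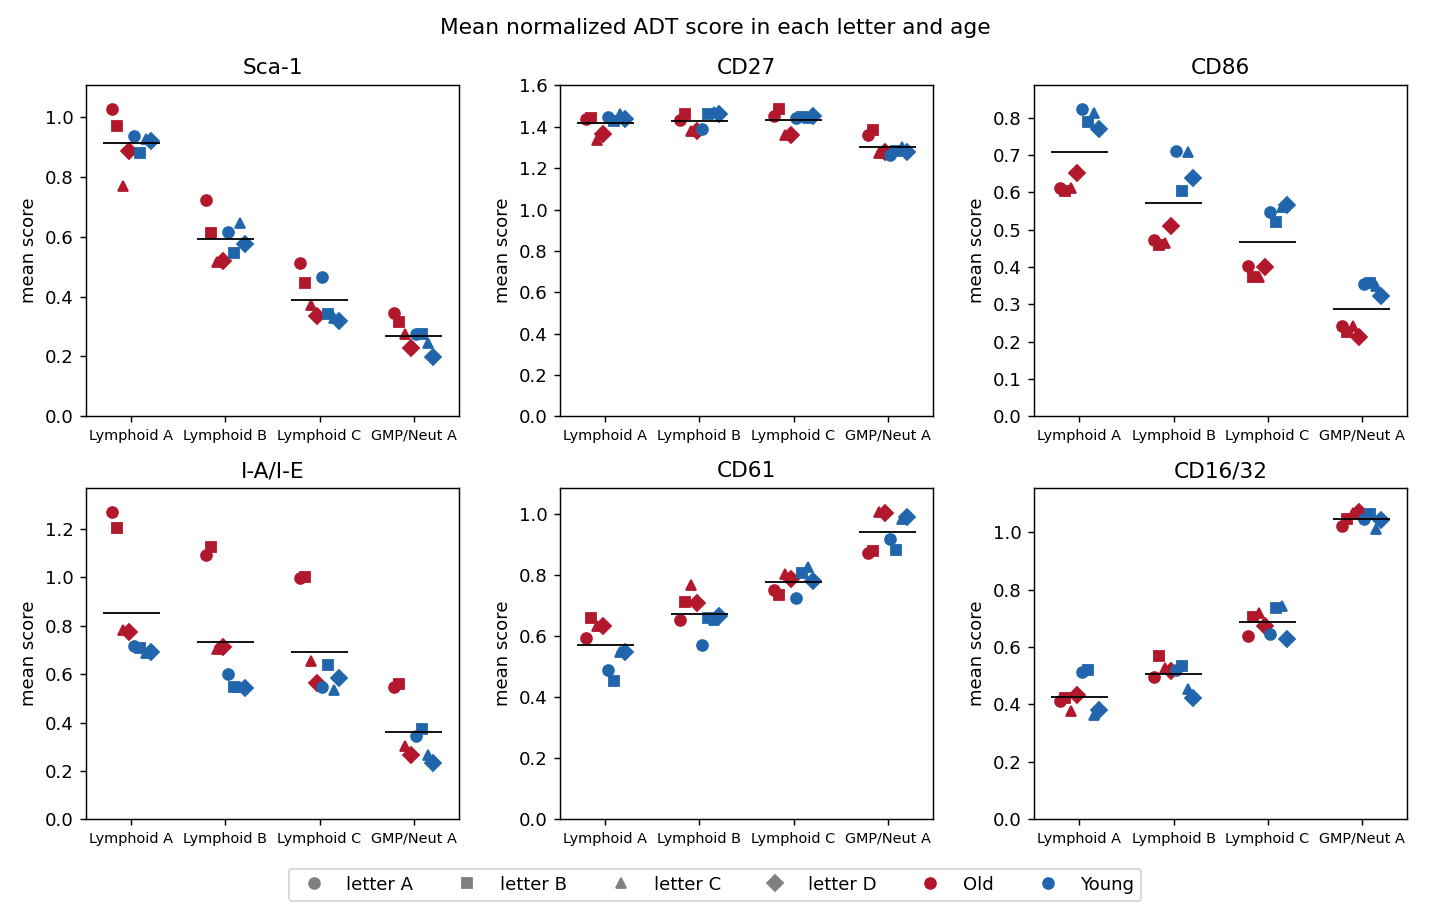
Mean normalized ADT score (vertical axes) of 6 proteins in Lymphoid A, Lymphoid B, Lymphoid C and GMP/Neut progenitor A (horizontal axes). Each point is the mean over the cells of 1 letter (symbol) and age (red old, blue young) and black lines are means of the 8 points, which for Sca-1 were 0.914, 0.593, 0.390 and 0.269 from left to right.

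Lymphoid B lay between Lymphoid A and Lymphoid C in several proteins. Against Lymphoid C, a comparison added after the data were seen, 5 of 35 proteins were counted (14.3%), 2 higher (5.71%) and 3 lower (8.57%). Sca-1 was higher by 0.204 ± 0.0586 and CD86 by 0.103 ± 0.0347. CD16/32 was lower, with a difference of -0.181 ± 0.0527, as were CD41, the platelet integrin chain, at -0.121 ± 0.0695 and CD61 at -0.103 ± 0.0543. Sca-1, CD86 and CD61 were thus counted against both classes and in opposite directions, and the mean scores of CD16/32 over the 8 groups were 0.427 in Lymphoid A, 0.505 in Lymphoid B and 0.686 in Lymphoid C. CD54 was higher than in Lymphoid C in all 8 groups by 0.0942 ± 0.0198 and CD135 by 0.0994 ± 0.0771 in 7 of 8.

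Over the 35 mean scores Lymphoid B was nearest to the multipotent classes MPP D (Euclidean distance 0.145) and MPP B (0.227), then to Lymphoid C (0.386) and Lymphoid A (0.465). GMP/Neut progenitor B followed at 0.856, progenitor A at 0.941 and DC progenitors at 1.70. The distance to MPP D within 1 letter and age had a median of 0.271 (0.150 to 0.479), inside the range between letters of Lymphoid B itself. Against MPP B and against MPP D no protein was counted (0% in each). A single direction in all 8 groups was seen for 4 proteins against MPP B (Sca-1, CD61, CD79b and CD48) and for 2 against MPP D (CD63 and CD79b). The largest of these was Sca-1 against MPP B, with a difference of -0.0984 ± 0.0874. CD27 differed by 0.00288 ± 0.0244 from MPP B and by -0.00545 ± 0.0360 from MPP D. These comparisons were added after the data were seen, and a difference under 0.1 does not show that the classes carry equal amounts.

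**Figure D3:**
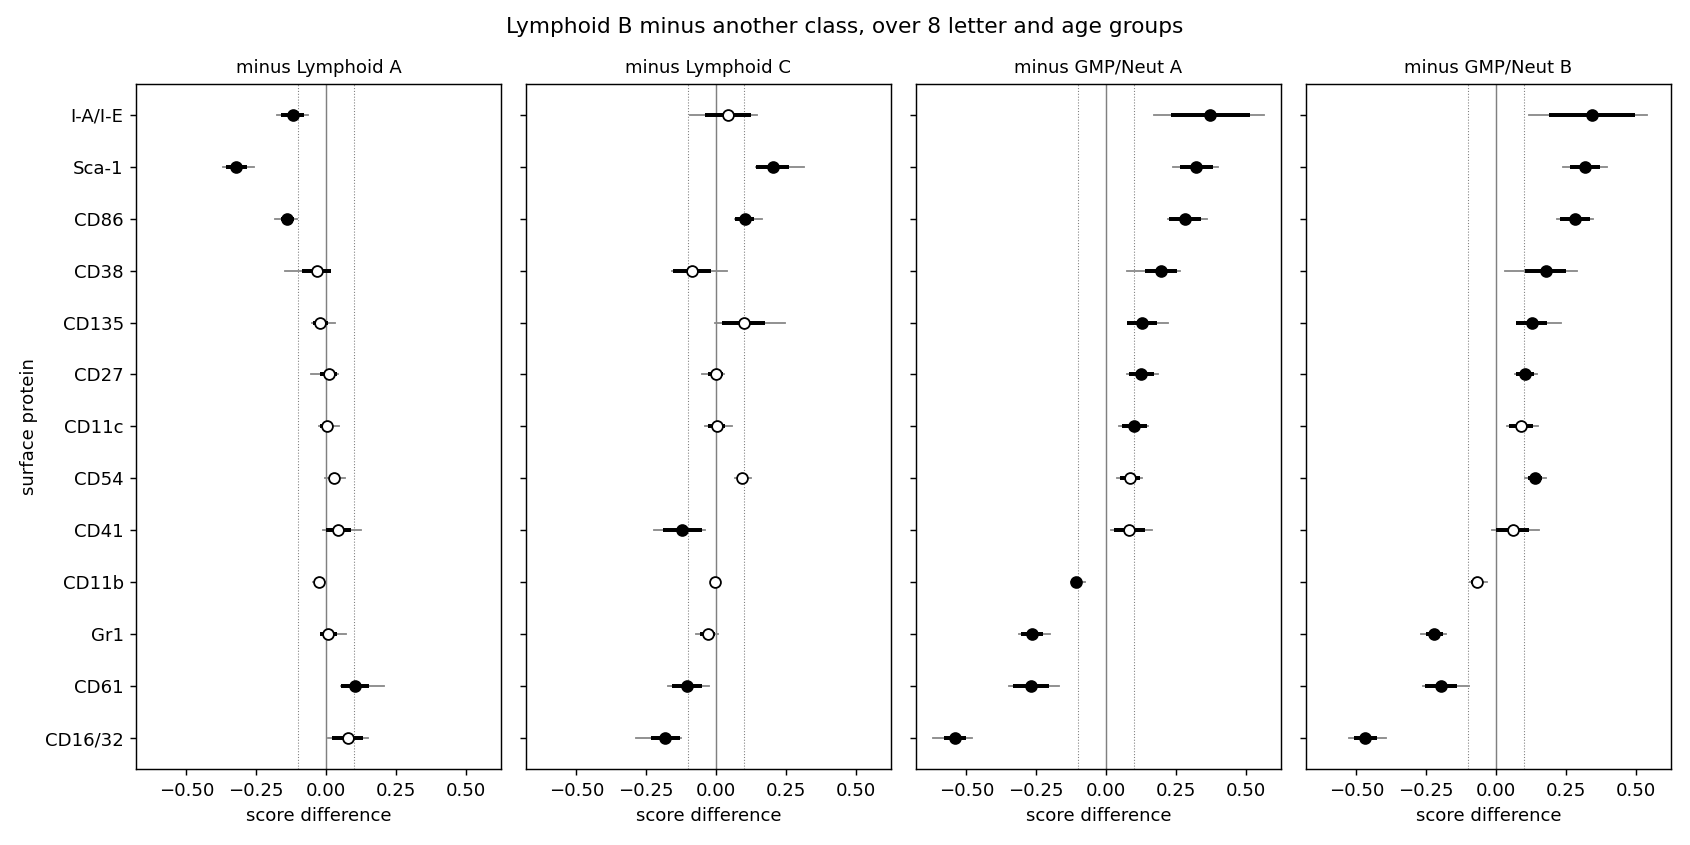
Difference in normalized ADT score, Lymphoid B minus the class named above each panel (horizontal axes), for 13 proteins counted in any of the 4 panels (vertical axis). Circles are means over 8 letter and age groups, thick bars the SD, thin bars the range, filled circles are counted as different and dotted lines mark 0.1. Sca-1 lies below 0 against Lymphoid A (-0.320) and above 0 in the other panels.

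The second comparison set Lymphoid B against the GMP/Neut progenitor classes, to find the surface proteins that part lymphoid from granulocyte-monocyte progenitors. Lymphoid B carried far less CD16/32 and less of the myeloid protein Gr1 and of CD61, and more MHC class II, Sca-1 and CD86. Against progenitor A 11 of 35 proteins were counted (31.4%), 7 higher (20%) and 4 lower (11.4%), a split of 13 and 3 with scores centred on the lineage antibodies and of 14 and 5 on log2 counts per 1000. The lineage antibodies include Gr1 and CD11b, themselves lower in Lymphoid B, so centring raised every difference (CD135 from 0.130 to 0.173). Against progenitor B 10 were counted (28.6%), 7 higher (20%) and 3 lower (8.57%). CD16/32, the Fc gamma receptors used to define GMPs, differed by -0.541 ± 0.0398 from progenitor A and -0.467 ± 0.0426 from progenitor B. Its Lymphoid B means were 0.519, 0.534, 0.455 and 0.421 in young and 0.496, 0.568, 0.527 and 0.517 in old cells of letters A to D, while the lowest group of progenitor A was at 1.01, so the groups did not overlap. It took 0.517% against 2.25% of the counts. Gr1, an antigen of neutrophils and monocytes, differed by -0.266 ± 0.0385 and -0.221 ± 0.0304, and CD61 by -0.267 ± 0.0645 and -0.197 ± 0.0588. The myeloid integrin CD11b was low in both, at 0.0581 against 0.164, and was counted against progenitor A alone (-0.106 ± 0.0192, and -0.0686 ± 0.0199 against progenitor B). Whether the 2 GMP/Neut classes differ from each other was not tested.

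MHC class II was higher than in progenitor A by 0.373 ± 0.141 and than in progenitor B by 0.345 ± 0.154, with a wide spread over the 8 groups. Sca-1 was higher by 0.324 ± 0.0580 and 0.319 ± 0.0524, CD86 by 0.283 ± 0.0572 and 0.283 ± 0.0527, and CD38, an ectoenzyme of stem and lymphoid cells, by 0.196 ± 0.0571 and 0.178 ± 0.0721. CD27 was higher by 0.127 ± 0.0453 and 0.105 ± 0.0327 and CD135 by 0.130 ± 0.0531 and 0.127 ± 0.0547. CD54 was higher in all 8 groups of both comparisons, with 0.0866 ± 0.0359 and 0.140 ± 0.0264, and was counted against progenitor B. CD127 was higher in all 8 groups, by 0.0802 ± 0.0354 and 0.0732 ± 0.0361, under the size of 0.1. CD11c was counted against progenitor A at 0.102 ± 0.0437 and was 0.0906 ± 0.0431 against progenitor B. CD34, a sialomucin of early progenitors, differed by -0.0306 ± 0.0708 and 0.0216 ± 0.0753, CD117 by 0.0321 ± 0.0102 and 0.0508 ± 0.0127, CD48 by 0.00569 ± 0.0143 and 0.0322 ± 0.0102 and CD44 by -0.0947 ± 0.0166 and -0.0615 ± 0.0189. CD34, CD117, CD48 and CD44 were thus under the size of 0.1 against both classes, which does not show equal amounts. CD44 was lower in all 8 groups of both comparisons, and CD48 was higher in all 8 groups against progenitor B. Thinning to 300 ADT counts lowered some of the differences from progenitor A, with CD86 at 0.175, CD135 at 0.0595, CD11c at 0.0571 and CD11b at -0.0398, and from progenitor B, with CD86 at 0.158 and CD135 at 0.0536. When cells were averaged by medians, CD27 was at 0.0769 and 0.0587.

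By lists, all 3 dendritic and antigen presenting proteins were higher than in progenitor A (median 0.283, beside 0.0149 over all 35) and 2 of 3 than in progenitor B (0.283, beside 0.0232). Of the 5 lymphoid progenitor proteins 3 were higher in each comparison (CD27, CD135 and Sca-1, medians 0.127 and 0.105), and of the 5 stem and early progenitor proteins 2 were higher (Sca-1 and CD38, medians 0.0321 and 0.0508). Of the 5 granulocyte and monocyte proteins 3 were lower than in progenitor A and 2 than in progenitor B (medians -0.106 and -0.0686). CD61 was the 1 of 5 megakaryocyte and platelet proteins counted, in both (medians 0.0199 and 0.0232). Of the 6 adhesion and activation proteins CD54 was the 1 counted, against progenitor B (medians -0.0173 and 0.00793). Of the 8 lineage proteins of the sort 2 were lower than in progenitor A, CD11b and Gr1, and 1 than in progenitor B, Gr1. No B cell (medians -0.0209 and -0.0209), T and NK cell (0.00835 and 0.00929) or erythroid (0.0388 and 0.0465) protein was counted.

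The third comparison, with DC progenitors, rests on few cells. The class held 22 cells in all, and 10 of them, in old cells of letter B, formed the 1 group with at least 10 cells of both classes. The differences there have no SD. Lymphoid B carried more CD27 and CD105, and less CD11c and MHC class II. Of 35 proteins 16 differed by at least 0.1 (45.7%), 9 higher (25.7%) and 7 lower (20%), a count with no check over groups, and the split was 14 and 4 with scores centred on the lineage antibodies. CD27 was 1.46 against 0.709 (difference 0.753), and CD105, the TGF-beta co-receptor endoglin, 0.612 against 0.283 (0.329). CD11c, the integrin chain of dendritic cells, was 0.288 against 0.893 (-0.605) and MHC class II 1.12 against 1.54 (-0.419). CD27 took 9.61% against 0.468% and MHC class II 2.04% against 20.9% of the counts, over all cells of the classes. Of the other markers, CD54 was lower in Lymphoid B (0.952 against 1.11) and so was CD135 (0.167 against 0.347). Thinned to 300 ADT counts, the difference was 0.820 for CD27, -0.506 for CD11c and -0.435 for MHC class II, but 0.189 for CD105, -0.129 for CD5, 0.138 for CD41, -0.0841 for CD11b and -0.00310 for B220, which were -0.147 for CD11b and -0.123 for B220 without thinning. With all cells pooled in place of the 1 group, Sca-1 differed by 0.0935 and CD34 by 0.359. Among the 10 largest differences were also Sca-1 (0.232), CD5 (-0.225), CD16/32 (0.223), CD41 (0.215) and CD135, and CD117 was higher by 0.155 and CD34 by 0.115. Of the 5 stem and early progenitor proteins 4 were higher (median 0.115, beside 0.00141 over all 35) and 2 of 3 dendritic and antigen presenting proteins were lower (-0.419). Of the 8 lineage proteins of the sort 1 was higher and 3 were lower (median -0.0481), and of the 5 lymphoid progenitor proteins 2 were higher and 1 lower (0.0375).

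The fourth comparison set old against young Lymphoid B cells within each letter. Old cells carried more MHC class II, CD11c and CD9, and less CD86, CD34 and CD38. With the sign required in all 4 letters, 6 of 35 proteins were counted (17.1%), 3 higher and 3 lower (8.57% each), and 18 had 1 direction at any size. The split was 8 higher and 3 lower on log2 counts per 1000, and 2 higher and 4 lower on the score with 1 logarithm. An exact two-sided sign-flip test over 4 letters could not reach a p of 0.05, so none was run. MHC class II had mean scores of 0.602, 0.546, 0.547 and 0.543 in young cells and 1.09, 1.12, 0.705 and 0.712 in old cells of letters A, B, C and D, so every old value lay above every young value. The old-minus-young differences were 0.491, 0.577, 0.158 and 0.169, a mean of 0.349 ± 0.217, with larger values in letters A and B than in C and D. As a share of ADT counts MHC class II took 4.78, 4.59, 1.66 and 1.45 percent in old and 0.751, 0.531, 0.491 and 0.565 percent in young cells of these letters. CD11c had 0.159, 0.179, 0.156 and 0.111 in young and 0.308, 0.288, 0.309 and 0.291 in old cells, a difference of 0.148 ± 0.0293. Its levels are low, with median counts of 4 in old and 2 in young cells, and every old group lay above every young group. CD9, a tetraspanin, had 0.670, 0.663, 0.719 and 0.660 in young and 0.771, 0.780, 0.854 and 0.819 in old cells, again without overlap, a difference of 0.128 ± 0.0246.

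CD86 had mean scores of 0.711, 0.605, 0.709 and 0.638 in young and 0.472, 0.459, 0.465 and 0.509 in old cells of letters A to D, a difference of -0.189 ± 0.0606, and the ages did not overlap. CD34 had 0.579, 0.670, 0.819 and 0.767 in young and 0.434, 0.466, 0.581 and 0.618 in old cells, a difference of -0.184 ± 0.0450, and the ages overlapped across letters, with letters C and D higher at both ages. CD38 differed by -0.293, -0.111, -0.108 and -0.0568, a mean of -0.142 ± 0.103, furthest from 0 in letter A. Without letter A the mean was -0.0921, under the size of 0.1, so this call rests on that letter. The antigen presenting proteins thus differed in direction, with MHC class II and CD11c higher and CD86 lower in old cells. Of the other proteins with 1 direction, F4/80, a macrophage antigen, differed by -0.0944 ± 0.0238, Gr1 by 0.0896 ± 0.0183, CD61 by 0.0718 ± 0.0327, CD62P, the platelet selectin, by 0.0624 ± 0.0303, CD79b by -0.0686 ± 0.0456 and CD48 by -0.0534 ± 0.0361.

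The class markers were not counted. CD54 was lower in old cells in all 4 letters by little (-0.0395 ± 0.0136). CD27 differed by 0.0438, -0.000531, -0.0901 and -0.0854 in letters A to D and CD135 by 0.0204, -0.0478, -0.149 and -0.0723, each with both signs. CD127 differed by -0.00125 ± 0.0652 and Sca-1 by -0.00347 ± 0.111, where letters A and B were higher in old cells and C and D lower (0.108, 0.0668, -0.132 and -0.0574). CD117 was higher in old cells in all 4 letters by 0.0338 ± 0.0227. CD16/32 differed by 0.0447 ± 0.0516, CD44 by -0.0250 ± 0.0214 and CD150 by 0.0110 ± 0.0417. In the lists, the count was 2 higher and 1 lower of 3 dendritic and antigen presenting proteins (median 0.148, beside -0.0122 over all 35), 1 higher of 5 megakaryocyte and platelet proteins (0.0624) and 2 lower of 5 stem and early progenitor proteins (-0.00347). None was counted of the lymphoid progenitor (-0.0234), B cell (-0.0525), granulocyte and monocyte (0.00514), adhesion and activation (-0.0288), T and NK cell (0.000465), erythroid (-0.0196) or sort lineage (0.000488) proteins. The 8 sort lineage antibodies together took 0.906% to 1.02% of the counts of young and 1.28% to 1.50% of those of old letter groups, and the 3 dendritic and antigen presenting ones 1.16% to 1.78% and 2.28% to 5.50%. With scores centred on these lineage antibodies in each cell, 7 proteins were counted with age, the 6 above among them. Median ADT counts were higher in old cells in letters A and B (2917 against 2635.5 and 3302.5 against 3073.5) and lower in C and D (2645 against 3893 and 2378 against 2772), so depth had no common direction with age. Thinned to 300 ADT counts, MHC class II, CD9 and CD34 were still counted, at 0.357, 0.105 and -0.133, while CD11c (0.0977), CD86 (-0.0990) and CD38 (-0.0592) fell under the size of 0.1.

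**Figure D4:**
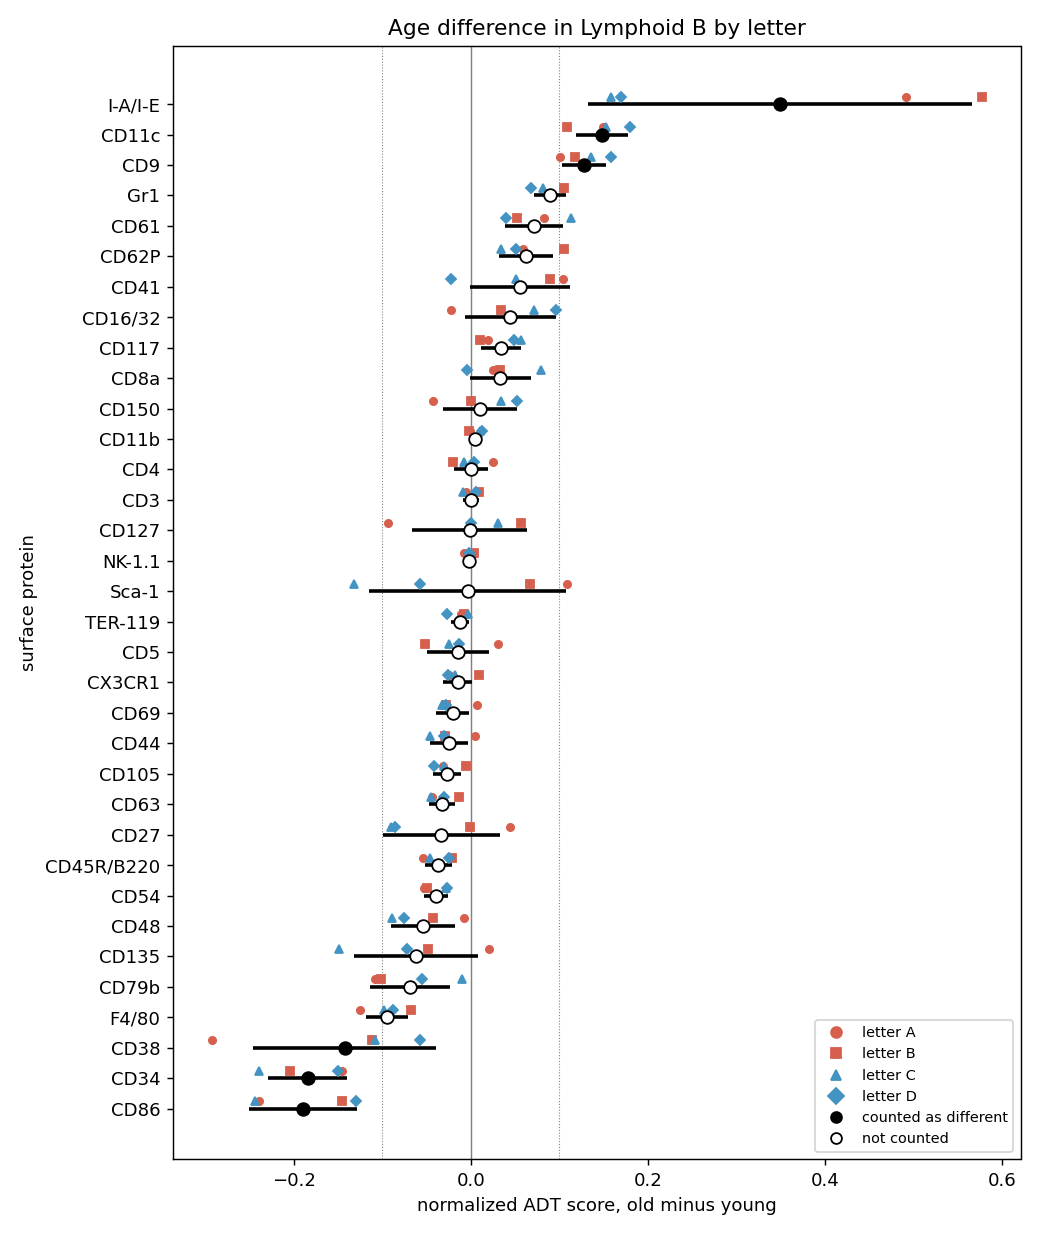
Old minus young normalized ADT score in Lymphoid B (horizontal axis) for 34 surface proteins (vertical axis). Large circles are means over 4 letters with the SD (filled where counted as different), small symbols are single letters (red A and B, blue C and D) and dotted lines mark 0.1. MHC class II (I-A/I-E) has the highest mean, 0.349, with letters A and B apart from C and D.

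The age differences of Lymphoid B were set beside those of 7 other classes in the same letters. The count was 8 of 35 in Lymphoid A (22.9%), 5 in Lymphoid C (14.3%), 8 in MPP A (22.9%), 6 in MPP B (17.1%), 7 in MPP D (20%) and 3 in each GMP/Neut class (8.57%). The same letters supplied all classes, so these counts are not independent. MHC class II differed with age by 0.307 ± 0.254 in Lymphoid A and 0.229 ± 0.217 in Lymphoid C, and by 0.114 ± 0.0909 in GMP/Neut progenitor A. The difference of these differences, Lymphoid B minus the other class within each letter, was 0.0423 ± 0.0693 for Lymphoid A with both signs, 0.120 ± 0.0953 for Lymphoid C, 0.235 ± 0.131 for progenitor A and 0.259 ± 0.133 for progenitor B, the last 3 with 1 sign in all letters. For CD34 it was -0.0158 ± 0.0415 against Lymphoid A, -0.0920 ± 0.0570 against progenitor A and -0.110 ± 0.0494 against progenitor B. For CD9 it was 0.0478 ± 0.0252, 0.0943 ± 0.0465 and 0.110 ± 0.0606. Of the 35 proteins, 0 reached 0.1 with 1 sign against Lymphoid A, MPP B or MPP D, 1 did against progenitor A (MHC class II), 3 against progenitor B (MHC class II, CD34 and CD9), 2 against Lymphoid C (MHC class II and CD41) and 1 against MPP A. With 1 sign at any size there were 7 proteins against Lymphoid A, 4 against MPP B and 1 against MPP D. CD86 differed with age by -0.116 ± 0.0108 in progenitor A and CD38 by -0.168 ± 0.0691.

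**Figure D5:**
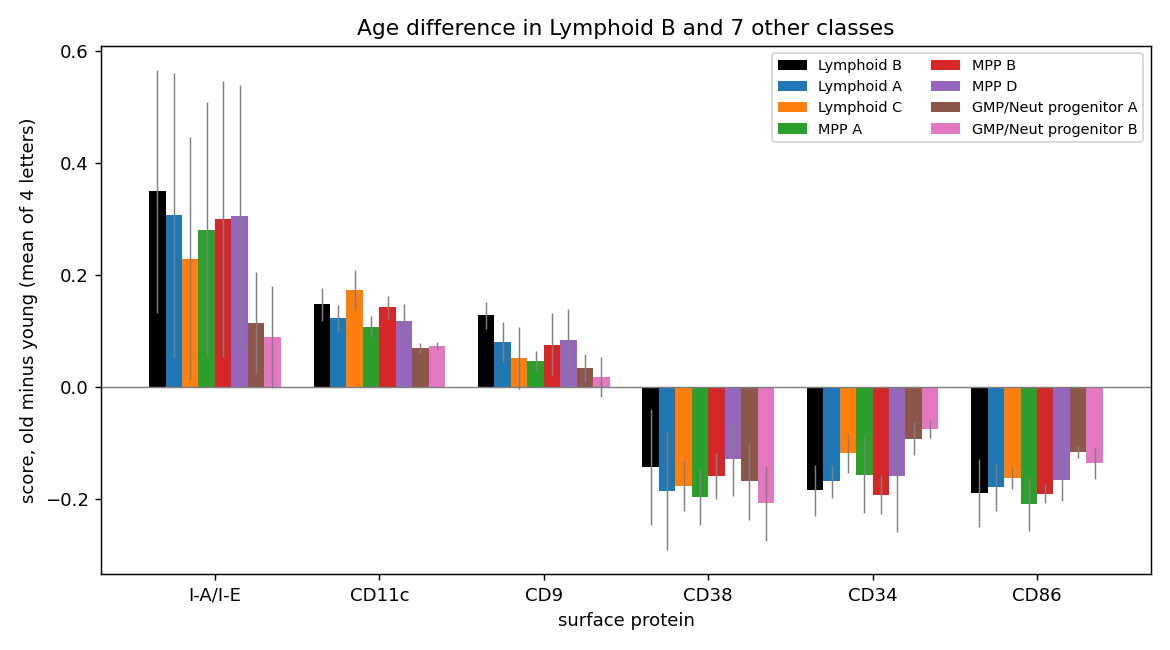
Old minus young normalized ADT score (vertical axis, mean of 4 letters, grey bars are the SD over letters) of the 6 proteins counted in Lymphoid B (horizontal axis), in Lymphoid B (black) and 7 other classes (colours). CD86, CD38 and CD34 lie below 0 and MHC class II (I-A/I-E), CD11c and CD9 above 0 in all 8 classes. MHC class II is lower in the GMP/Neut classes (0.114 and 0.0896) than in Lymphoid B (0.349), with MPP B at 0.299 and MPP D at 0.305. CD11c is higher in Lymphoid C (0.174) than in Lymphoid B (0.148).

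Gates like those of flow cytometry split the class. Sca-1 at or above 0.71 with CD117 above 1, the thresholds the study used to separate Sca-1+ cells from myeloid progenitors, held 139 of 467 cells (29.8%, 25.7% to 34.1%) of Lymphoid B, where the interval is the exact 95% one. In Lymphoid A it held 244 of 341 cells (71.6%, 66.4% to 76.3%), in Lymphoid C 26 of 417 cells (6.24%), in MPP D 99 of 265 cells (37.4%, 31.5% to 43.5%) and in HSCs 178 of 189 cells (94.2%, 89.8% to 97.1%). In Lymphoid B 59 cells lay within 0.1 of the Sca-1 threshold, so the gate cuts through a continuous range. It held 60 of 188 cells (31.9%, 25.3% to 39.1%) of young and 79 of 279 cells (28.3%, 23.1% to 34.0%) of old Lymphoid B cells. These shares pool the letters, and the intervals cover counting error only. In letters A to D the gate held 41.7%, 20.5%, 35.4% and 31.7% of young cells. Among old cells it held 42.6%, 30.6%, 16.9% and 25.3%, higher than in young cells in A and B and lower in C and D. CD48 was above 1.1, a threshold the study derived on megakaryocyte progenitors, in 464 of 467 cells (99.4%, 98.1% to 99.9%), against 20 of 189 cells (10.6%, 6.58% to 15.9%) of HSCs. Neighbouring classes passed it alike, with 94.7% of Lymphoid A, 100% of Lymphoid C, 98.7% of MPP B, 98.5% of MPP D and 100% of GMP/Neut progenitor A cells. Egfp was called negative by the authors in 3 of 188 cells (1.60%, 0.330% to 4.59%) of young and 16 of 279 cells (5.73%, 3.31% to 9.15%) of old Lymphoid B cells, and in 132 of 172 cells (76.7%, 69.7% to 82.8%) of old HSCs. Old shares were also above young ones in Lymphoid A (9.70% and 3.41%), Lymphoid C (6.77% and 1.20%), MPP B (3.48% and 1.15%) and MPP D (6.34% and 1.63%). A higher old share was thus not particular to Lymphoid B.

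Lymphoid B made up 1.01%, 1.23%, 2.09% and 2.01% of young and 2.01%, 2.33%, 3.91% and 3.33% of old annotated cells in letters A, B, C and D, higher in old cells in each letter. These shares depend on how the sorted fractions were mixed. Outside the erythroid and MkP (megakaryocyte progenitor) classes the shares were 3.86%, 4.27%, 4.80% and 4.67% in young and 3.25%, 3.88%, 7.07% and 6.56% in old cells, lower in old cells in A and B and higher in C and D. Of the cells of the 3 lymphoid classes, Lymphoid B was 35.5% in young and 40.1% in old mice, with both signs over letters.

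Proteins also varied together among the 467 cells, which share depth and normalization, so the Spearman coefficients are a description. CD16/32 went with CD9, at 0.61 (0.55 to 0.74 within the 8 groups), with CD38 at 0.60 (0.49 to 0.82 within the 8 groups) and with CD41 at 0.50 (0.32 to 0.69 within the 8 groups). It went against CD135, at -0.56 (-0.80 to -0.44 within the 8 groups), and against Sca-1, at -0.47 (-0.59 to -0.35 within the 8 groups). CD135 also went against CD41, at -0.54 (-0.66 to -0.41 within the 8 groups), and against CD9, at -0.52 (-0.72 to -0.39 within the 8 groups). Sca-1 went with CD86, at 0.45 (0.40 to 0.63 within the 8 groups). On log2 counts per 1000 ADT counts these coefficients were 0.71 for CD9 with CD16/32, -0.50 for CD16/32 with CD135, -0.29 for Sca-1 with CD16/32 and 0.46 for Sca-1 with CD86. With cells thinned to 300 ADT counts all were nearer to 0, at 0.40 for CD16/32 with CD9, 0.42 with CD38, 0.21 with CD41, -0.21 with CD135 and -0.29 with Sca-1. CD135 then had -0.16 with CD41 and -0.22 with CD9, and Sca-1 had 0.22 with CD86, so the sizes depend on depth while the signs held. CD27 with CD44 was 0.66 (0.38 to 0.73 within the 8 groups) on the score, 0.06 on counts per 1000 and 0.26 after thinning, and CD27 with CD48 was 0.60 (0.20 to 0.67 within the 8 groups), 0.29 and 0.28.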

How the data were processed

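Surface proteins and RNA were measured in the same bone marrow cells (CITE-seq). Cell Ranger and the build mm10 are named in the submitters' processing notes, with versions not given there. The authors kept cells with at least 200 genes, removed cells negative for both CD117 tags and Kit RNA, and named the RNA classes. The deposited table of counts holds the whole number of tags of each of 35 antibodies per cell, not normalized. The deposited score was made by the authors by dividing a tag count by the geometric mean of the cell's tag counts and applying log(1 + x) 2 times, which was checked by rebuilding it. The deposited percent of mitochondrial RNA and the RNA totals served to describe depth only. The deposited cell table also gives, per the file headers, class, age and cell group names.

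All 8 libraries carry 1 set of labels, and the cell groups match no library title, so the cells are 1 sample and differences between letters describe spread only. Mean scores were taken per letter and age, with at least 10 cells of each kind, and a protein was counted where the sign was shared by every letter and age group and the mean difference reached 0.1. It was tested on simulated data of 35 proteins for the comparison of old and young cells, where 6 of 6 shifted proteins were counted and 0 of 29 unchanged ones. The simulated cells came from a single pooled profile, with noise between cells and none between letters. The simulation therefore cannot show how often unchanged proteins are counted where letters differ, as they do here. Cells with a tag are given with exact (Clopper-Pearson) 95% intervals, also after thinning to 300 tags. Named proteins are the class markers, 8 progenitor proteins (CD127, Sca-1, CD117, CD150, CD48, CD34, CD44 and CD16/32), members of cell type lists, and the 10 largest differences of each comparison; others with a single sign were chosen after their values were seen. The members and lists were chosen with earlier results of these data known. Alternatives varied normalization, averaging, pairing, cell minimum, depth, letters and size. 1 of the 35 proteins enters the counts, medians and distances and is not reported here by name or drawn. Gene positions are from GENCODE M21. Python 3.11.15, numpy 2.4.6, pandas 2.3.3, scipy 1.17.1 and matplotlib 3.10.9 were used.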

Additional observations from a re-analysis of the deposited data

Results flagged for a closer look

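A value was marked where its distance to the nearest of the others, over the whole range, exceeded Dixon's 95% critical value. Of 102 sets of 4 or 8 values, 10 held such a value, and chance alone marks about 1 in 20. In young Lymphoid B cells, letter A stood apart in 3 proteins. MHC class II was 0.602 (the others 0.543 to 0.547), CD27 was 1.39 (the others 1.46 to 1.47) and CD150 was 0.120 (the others 0.0690 to 0.0775). Letter C stood apart in CD9, at 0.719 (the others 0.660 to 0.670), and letter B in CD48, at 1.68 (the others 1.63 to 1.63).

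Young cells of letter B also stood apart among the class differences. CD34 minus Lymphoid A was 0.0163 (the others -0.109 to -0.0512), the 1 group in which Lymphoid B was not lower. Against GMP/Neut progenitor A, CD48 differed by 0.0391 (the others -0.00633 to 0.00978) and CD44 by -0.0585 (the others -0.110 to -0.0890). Against progenitor B, CD48 differed by 0.0560 (the others 0.0235 to 0.0335) and CD44 by -0.0173 (the others -0.0794 to -0.0606).

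CD54 was lower in old than in young Lymphoid B cells in every letter (mean difference -0.0395) and higher in old GMP/Neut progenitor A cells in every letter (0.0216). The 2 age differences are -0.0610 apart, and this difference was not tested.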

How the results depend on the processing

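The proteins counted were 5 against Lymphoid A, 11 against GMP/Neut progenitor A, 10 against progenitor B, 16 against DC progenitors and 6 with age. With a size of 0.05 the counts were 8, 17 and 16 against Lymphoid A and progenitors A and B and 12 with age. With a size of 0.2 they were 1, 6, 5, 8 and 1. On log2 of tag counts per 1000 they were 19 against progenitor A (14 higher, 5 lower, against 7 and 4) and 11 with age (8 higher, 3 lower, against 3 and 3), and the split against DC progenitors was 14 and 7, against 9 and 7. Thinned to 300 tags, 3 were counted against Lymphoid A. The split of higher and lower proteins also moved with scores centred on the lineage antibodies, to 13 and 3 against progenitor A and to 14 and 4 against DC progenitors. Centring adds the same amount to every difference of a comparison. The lineage antibodies were on average lower in Lymphoid B in both comparisons, so every difference rose (CD27 against DC progenitors from 0.753 to 0.814). Leaving out 1 letter gave 4 to 5 against Lymphoid A, 10 to 11 against each GMP/Neut class and 5 to 7 with age. In groups of numbers 1 and 3 alone, an alternative added after the data were seen, the counts were 4, 11, 11, 15 and 6, and with letters A and B alone 8 proteins were counted with age. Each protein counted against Lymphoid A, the GMP/Neut classes or DC progenitors, or with age, kept its sign under all alternatives on the score scale. The comparisons with Lymphoid C, MPP B and MPP D were not put through these alternatives. The DC values have no spread to set such moves against. The DC comparison allowed no value with a minimum of 20 cells, in the depth window, without a letter or in a letter pair. Differences in the main comparisons were paired by letter, while an alternative pooled all cells without pairing. Class ranks and the distances between class means were taken over all cells. Pairing within the full group name gave 4, 11, 11 and 15 in the class comparisons, was not possible for age, and no label ties groups to animals. CD135, CD11c and CD11b have few tags per cell, which limits their values.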
